A study of Homo sapiens with 2 samples.

Results

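The mitochondrial rRNA transcription unit comprises 5 neighbouring genes: MT-TF, MT-RNR1, MT-TV, MT-RNR2 and MT-TL1. They were taken by their Ensembl IDs from a table of 57820 IDs, where they stand in adjacent rows and open the 37 rows of the mitochondrial chromosome that end the table. All 5 were found, and 4 of them had a count above 0. The genes were selected on their counts in both libraries, which were known, so their levels and their library ratios are given as descriptions, with no test.

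Human mitochondrial DNA is transcribed into long polycistronic RNAs, in which tRNAs stand between most of the other genes and are cut out to release them. MT-RNR1 encodes the 12S rRNA of the small mitochondrial ribosomal subunit, and MT-RNR2 encodes the 16S rRNA of the large subunit. Both rRNAs are structural parts of the mitochondrial ribosome, which translates the proteins that mitochondrial DNA encodes. The rRNA genes are flanked and separated by 3 tRNA genes, MT-TF for phenylalanine, MT-TV for valine and MT-TL1 for leucine. In the human mitochondrial ribosome the valine tRNA is also built into the large subunit as a structural RNA.

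The 2 libraries came from ribosome profiling of HEK293 cells, a long-established line of human embryonic kidney origin, and formed 1 group kept in DMSO vehicle for 12 h. Replicate 1 came from batch 1 and replicate 2 from batch 2, each from 2 plates of 15 cm, so batch and replicate cannot be told apart. Lysates made with cycloheximide, which stalls cytosolic ribosomes, were treated with RNase I, monosomes were collected by size exclusion, and rRNA was not depleted. The table counts fragments of 27 to 29 nt per gene ID, and minocycline-treated cells and positions within genes are not analysed here. The files and the reference table do not pair Ensembl IDs with symbols: the names of the 5 genes come from the gene list given for this work, other rows appear as IDs, and cell-line markers could not be checked.

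Replicate 1 held 865838 counts and replicate 2 held 611266. These totals are the counted fragments of 27 to 29 nt on the IDs of the table. Every share or rank in a library given here refers to them. Fragments of other lengths, or not assigned to an ID, are outside these totals, so the shares and ranks do not refer to all sequenced fragments. Whether fragments of cytosolic rRNA, which was not depleted, are counted on any ID could not be checked. The other 32 mitochondrial rows held 18662 counts in replicate 1 and 16814 in replicate 2, or 2.16% and 2.75% of the libraries. The ID with the highest count outside the mitochondrial chromosome held 0.812% of replicate 1 and 1.05% of replicate 2.

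The 5 genes together took 152346 counts in replicate 1 and 142279 in replicate 2. As a share of the library this was 17.6% (95% exact Clopper-Pearson interval 17.5 to 17.7) in replicate 1 and 23.3% (23.2 to 23.4) in replicate 2, with a mean of 20.4% ± 4.02 (SD, n = 2). The share was higher in replicate 2, and the intervals did not overlap. The intervals cover only the error of counting and take each fragment as a separate molecule, which amplified fragments without molecular identifiers need not be. Outside the 5 genes, 713492 counts were left in replicate 1 and 468987 in replicate 2. To reach the counts of the unit took the 76 highest other IDs in replicate 1 and the 151 highest in replicate 2. The other 32 mitochondrial rows were not left out of these other IDs. These are shares of fragments of 27 to 29 nt and not amounts of RNA. The lysates are bulk samples, so a higher share of cells holding an RNA and more of it per cell also cannot be told apart.

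Nearly all counts of the unit lay on the rRNA genes. MT-RNR2 (ENSG00000210082.2), the 16S rRNA, had 78653.5 counts in replicate 1 and 82317.5 in replicate 2, and ranked 1 among all IDs in both libraries. Its count was higher in replicate 2 although that library was the smaller, and its share of the library was 9.08% in replicate 1 and 13.5% in replicate 2. MT-RNR1 (ENSG00000211459.2), the 12S rRNA, had 73456 and 59774 counts and ranked 2 in both. Its count was lower in replicate 2, while its share was 8.48% of replicate 1 and 9.78% of replicate 2, a smaller difference than that of MT-RNR2. MT-RNR1 had 10.5 times the count of the highest ID outside the mitochondrial chromosome in replicate 1 and 9.30 times in replicate 2. For MT-RNR2 the same ratio was 11.2 and 12.8. These are ratios of counts, not of density along the genes.

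The tRNA genes held few fragments. Together the 3 had 236.5 counts in replicate 1 and 187.5 in replicate 2, which is 0.155% (interval 0.136 to 0.176) and 0.132% (0.114 to 0.152) of the unit, and the intervals overlapped. MT-TF (ENSG00000210049.1), the phenylalanine tRNA at the start of the unit, had 161 counts in replicate 1 and 101 in replicate 2. MT-TF ranked 840 among all IDs in replicate 1 and 874 in replicate 2, so its place in the 2 libraries was close. MT-TL1 (ENSG00000209082.1), the leucine tRNA that follows the 16S rRNA, had 75.5 counts in replicate 1 and 86.5 in replicate 2, and ranked 1833 and 1029. By count MT-TL1 therefore stood lower than MT-TF in both libraries, with a wide gap in replicate 1 and a narrow one in replicate 2.

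MT-TV (ENSG00000210077.1), the valine tRNA between the rRNA genes, was at 0 in both libraries. With 0 counted, a true level of up to 3 counts is possible, which corresponds to 3.46 CPM for replicate 1 and 4.91 CPM for replicate 2, where CPM are counts per 1000000 counts. MT-TV is the one gene of the unit with no fragment, although its neighbours on both sides were the highest IDs of the table. A 0 was common in the table: 74.2% of all IDs in replicate 1 and 76.2% in replicate 2 were at 0, as were 8 and 7 of the other 32 mitochondrial rows. The rule by which fragments at gene borders were assigned is not given in the sources used here, so a 0 for MT-TV gives only a limit on counted fragments of this length.

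Levels of different genes were set side by side per length, as CPM per kilobase, with gene lengths from RefSeq records of GRCh38.p14. These are 71 bases for MT-TF, 954 for MT-RNR1, 69 for MT-TV, 1559 for MT-RNR2 and 75 for MT-TL1, and the 5 records follow each other with 0 bases between neighbours. The deposited counts used hg19, and the gene models behind them are not given, so the lengths are those of RefSeq, not of the counting.

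Per length, the 12S rRNA gene was the densest of the 5 in both libraries. MT-RNR1 had 88929 CPM per kilobase in replicate 1 and 102502 in replicate 2, against 58269 and 86381 for MT-RNR2. By count, MT-RNR2 was ahead of MT-RNR1, 1.07-fold (interval 1.06 to 1.08) in replicate 1 and 1.38-fold (1.36 to 1.39) in replicate 2. Its gene is 1.63 times as long, and per base MT-RNR1 was ahead, 1.53-fold (1.51 to 1.54) in replicate 1 and 1.19-fold (1.17 to 1.20) in replicate 2, a mean of 1.36-fold ± 0.240 (SD, n = 2). The order of the rRNA genes thus turns with the measure, and was the same in the 2 libraries on each measure.

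The tRNA genes stayed far below the rRNA genes after this correction. The values here use whole gene lengths. Short genes have fewer places where a fragment of 28 nt can start, so the size of these gaps depends on that choice. MT-TF had 2619 CPM per kilobase in replicate 1 and 2327 in replicate 2. MT-TL1 had 1163 and 1887 CPM per kilobase. These point values lay further apart than those of MT-TF, but both genes rest on few counts, with 1 library on each side. MT-RNR1 was 34.0 times as dense as the adjoining MT-TF in replicate 1 (interval 29.1 to 39.9) and 44.0 times in replicate 2 (36.2 to 54.1). MT-RNR2 was 50.1 times as dense as the adjoining MT-TL1 in replicate 1 (40.2 to 64.1) and 45.8 times in replicate 2 (37.3 to 57.6). MT-TF was 2.25 times as dense as MT-TL1 in replicate 1 (1.71 to 3.02) and 1.23 times in replicate 2 (0.912 to 1.65). The latter interval includes 1, so MT-TF and MT-TL1 are neighbours in the order of levels that did not differ beyond counting error in replicate 2. For MT-TV, 3 counts would give 50.2 CPM per kilobase in replicate 1 and 71.1 in replicate 2, below MT-TL1 in the same library.

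**Figure D1:**
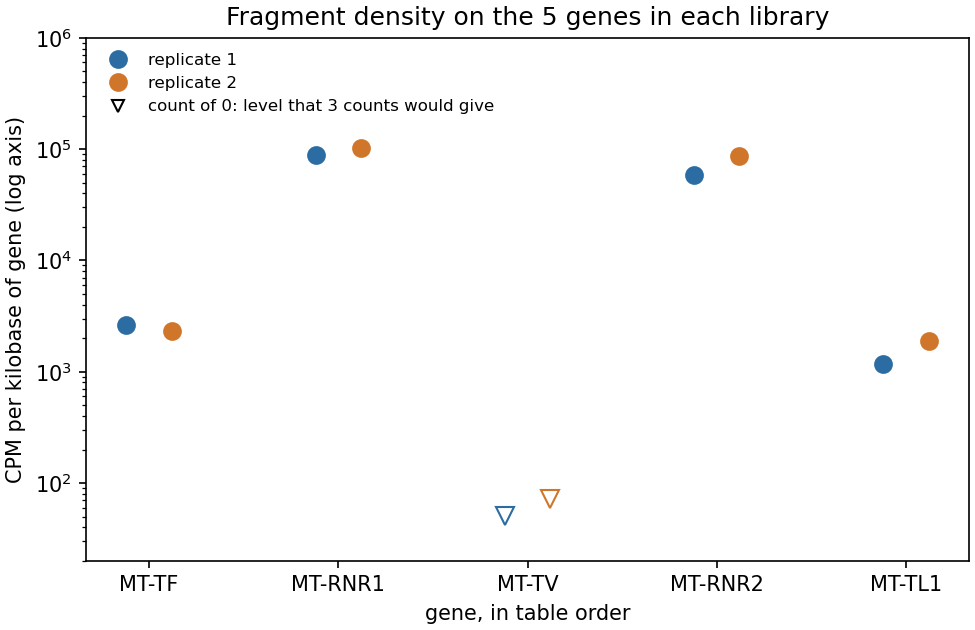
CPM per kilobase (log axis) of the 5 genes in table order, with 1 point per library in blue (replicate 1) and orange (replicate 2); open triangles mark the level that 3 counts would give where the count was 0. MT-RNR1 and MT-RNR2 sit between 58269 and 102502, MT-TF and MT-TL1 between 1163 and 2619, and the triangles of MT-TV at 50.2 and 71.1.

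Within the mitochondrial chromosome, the share of the unit was nearly the same in both libraries. It held 89.1% (interval 88.9 to 89.2) of the counts of the 37 rows in replicate 1 and 89.4% (89.3 to 89.6) in replicate 2, a mean of 89.3% ± 0.243 (SD, n = 2). These intervals did not overlap, so the shares differed slightly, beyond counting error. The split inside the unit differed more. MT-RNR1 held 43.0% of the mitochondrial counts in replicate 1 and 37.6% in replicate 2, while MT-RNR2 held 46.0% and 51.7%. The other 32 rows held 10.9% and 10.6%. The 16S rRNA thus made up more, and the 12S rRNA less, of the mitochondrial counts in replicate 2.

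The ratio of MT-RNR2 to MT-RNR1 was 1.29 times as high in replicate 2 as in replicate 1 (conditional exact interval 1.27 to 1.31). This value needs no scaling between libraries, since both counts come from the same library. Against the summed counts of the other 32 mitochondrial rows, MT-RNR1 was 0.903 times as high in replicate 2 (0.882 to 0.925), and MT-RNR2 was 1.16 times as high (1.14 to 1.19). Relative to the rest of the mitochondrial chromosome the rRNAs therefore differed in opposite directions, each by more than counting error. With 1 library on each side, the spread of these ratios between further libraries is not known.

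**Figure D2:**
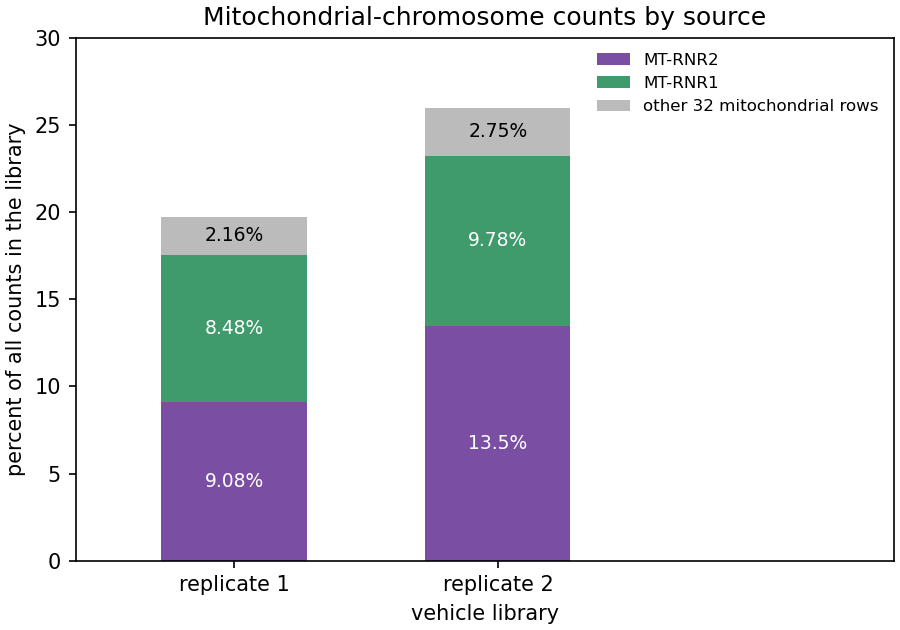
Stacked bars, starting at 0, of the percent of all counts in each vehicle library that fell on MT-RNR2, on MT-RNR1 and on the other 32 mitochondrial rows; the 3 tRNA genes are too few counts to be seen and are left out. MT-RNR2 goes from 9.08% to 13.5%, MT-RNR1 from 8.48% to 9.78%, and the other rows from 2.16% to 2.75%.

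Each gene was then compared between the libraries after TMM scaling, which sets the libraries on one scale by a trimmed mean of ratios over IDs. Among 2241 IDs with at least 100 summed counts, 8.61% were past 1.5-fold towards replicate 2 and 11.7% towards replicate 1. Of the 5 genes, 4 reached 100 summed counts, of which 2 (MT-RNR2 and MT-TL1) were past 1.5-fold towards replicate 2 and 0 towards replicate 1. The genes were proposed with these ratios known, so the count is a description.

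MT-TF, with 161 and 101 counts, had a log2 ratio of replicate 2 over replicate 1 of -0.06 (95% interval -0.43 to 0.31), next to the median of all tested IDs, -0.07. MT-RNR1 had a log2 ratio of 0.31 (0.30 to 0.33), or 1.24-fold, and 20.8% of tested IDs had a higher ratio. MT-RNR2 had a log2 ratio of 0.68 (0.66 to 0.69), or 1.60-fold, and 6.25% of tested IDs were higher. MT-TL1, with 75.5 and 86.5 counts, had a log2 ratio of 0.81 (0.33 to 1.25), or 1.75-fold, and 3.88% were higher. The interval of MT-TL1 includes 1.5-fold, so its place past that limit is not beyond counting error. The rRNA genes were thus in the upper part of the distribution, and MT-TF was at its centre. By library size in place of TMM, MT-RNR2 was 1.48-fold and MT-RNR1 1.15-fold higher in replicate 2, so MT-RNR2 was then short of 1.5-fold, and 5.89% of IDs were past it in that direction. The sign for MT-TF was not settled, since its interval includes 0 and TMM over IDs with at least 100 summed counts gave 0.01.

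**Figure D3:**
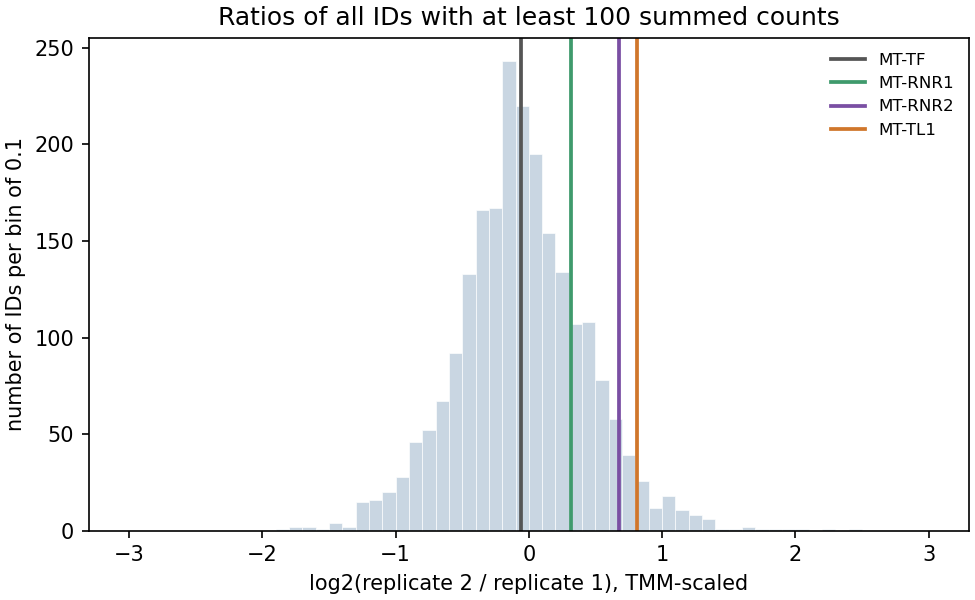
Histogram of the TMM-scaled log2 ratio of replicate 2 over replicate 1 for the 2241 IDs with at least 100 summed counts, with vertical lines at 4 genes of the unit. MT-TF lies at -0.06 near the median of -0.07, MT-RNR1 at 0.31, MT-RNR2 at 0.68 and MT-TL1 at 0.81.

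In table order, which is genome order, the log2 ratio was higher at each successive measured gene of the unit, from -0.06 at MT-TF through 0.31 at MT-RNR1 and 0.68 at MT-RNR2 to 0.81 at MT-TL1. This order was noticed after the values were seen. The intervals of MT-TF and MT-RNR1 overlapped, as did those of MT-RNR2 and MT-TL1, and those of MT-RNR1 and MT-TL1 overlapped only barely. The intervals of MT-RNR1 and MT-RNR2 did not overlap. The row after MT-TL1, ENSG00000198888.2, had 1497 counts in replicate 1 and 1546 in replicate 2, and a log2 ratio of 0.66 (0.55 to 0.76). Of the other 32 mitochondrial rows it was also the one whose ratio was nearest to that of MT-RNR2, at a distance of 0.02, over the 18 rows with at least 100 summed counts. The next nearest, ENSG00000198786.2, had 5964 and 5666.5 counts, a log2 ratio of 0.54 and a distance of 0.14. Likeness over only 2 libraries rests on 1 ratio per gene.

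Of these 18 other rows, 17 had a log2 ratio above 0, with a median of 0.42 and a range of -0.05 to 0.66, where 43.0% of all 2241 tested IDs had a ratio above 1. In 15 of the 18 the ratio was above that of MT-RNR1, and in 0 of the 18 was it above that of MT-RNR2. These counts use point values. The intervals of some of the 18, among them ENSG00000198888.2 (0.55 to 0.76), include the ratio of MT-RNR2. The place of MT-RNR2 above all 18 is therefore not beyond counting error. The higher mitochondrial share in replicate 2 was therefore not limited to the rRNA genes, MT-RNR2 stood at the upper end of the mitochondrial rows, and MT-RNR1 in their lower part. Past 1.5-fold towards replicate 2 was 1 of the 18, against 8.61% of all tested IDs, and past it towards replicate 1 were 0 of the 18, against 11.7%. That 1 row was short of 1.5-fold by library size, where the highest log2 ratio of the 18 was 0.55, and with TMM over all IDs above 0, where it was 0.58. With TMM over IDs of at least 100 summed counts, 4 of the 18 were past 1.5-fold towards replicate 2.

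**Figure D4:**
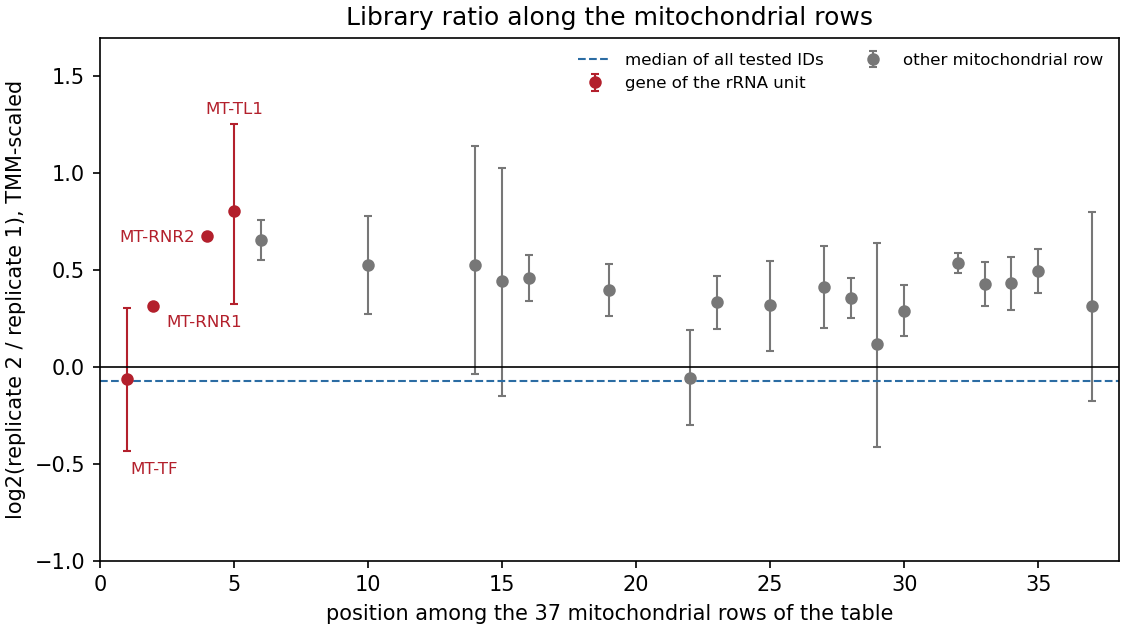
TMM-scaled log2 ratio of replicate 2 over replicate 1 (vertical axis) by position among the 37 mitochondrial rows (horizontal axis) for rows with at least 100 summed counts, with the genes of the unit in red and the others in grey; bars are 95% conditional exact intervals of counting error, and the dashed line is the median of all tested IDs, -0.07. The genes of the unit go from -0.06 to 0.81 within the first 5 positions, and the other rows lie between -0.05 and 0.66.

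Some deposited counts were not whole, and within the unit these were the counts of 2 adjoining genes. MT-RNR2 and MT-TL1 each ended in 0.5 in both libraries. Their sums were 78729 in replicate 1 and 82404 in replicate 2. Any 2 counts that end in 0.5 have a whole sum, so these sums do not show that the 2 genes shared fragments. MT-TF and MT-RNR1 had whole counts in both. Among the other 32 mitochondrial rows, 10 had a count that was not whole in each library, of 24 above 0 in replicate 1 and 25 in replicate 2. A remainder of 0.5 does not show how many fragments were divided. How much of the low count of MT-TL1 came from divided fragments is therefore not known. The level and the library ratio given for MT-TL1 rest on that count. How fragments were divided between genes was not tested.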

How the data were processed

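The authors deposited 1 table of unscaled counts of 27 to 29 nt fragments per Ensembl ID for 2 vehicle libraries, per the series' design text. Values are not all whole (15.2% of those above 0 in replicate 1 and 13.9% in replicate 2, at a tolerance of 0.001), so the deposited values were treated as estimated counts. Per the submitters' processing notes, hg19 was the genome build. No aligner, counter, annotation or strand setting is stated in the sources used here. Nothing but the batch number says that the libraries came from separate cultures.

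The 5 genes and all lists were chosen with earlier results of these data known. All were named, with the 3 mitochondrial rows nearest to MT-RNR2 in ratio, of which 2 are printed. The 5 gene lists (131 symbols) and the cell markers were not used, because 0 of 57820 IDs occur among the 59792 RefSeq genes.

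Shares used deposited values over all IDs. Scaling used counts rounded to whole numbers, TMM in edgeR 4.0.16 (R 4.3.3) over IDs with at least 20 summed counts. Intervals were exact at 95%, from rounded counts (scipy 1.17.1, Python 3.11.15). With 1 group no contrast was tested. Alternatives were library size, with and without the unit or the 37 mitochondrial rows, DESeq2 1.42.0 size factors, other count minimums, folds and totals, 0.5 added to counts, rounding, and each replicate left out. Scaling, fold limit and intervals were tried on simulated counts that held counting error only. The genes changed there had far lower counts than the rRNA genes, and the intervals were checked with true totals in place of TMM.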

Additional observations from a re-analysis of the deposited data

How the results depend on the processing

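Of 74 alternatives computed, 0 reversed a value past 1.5-fold, but this outcome says little. Shares and counts of IDs have no direction to reverse, and the scalings shifted the ratios by less than 1.5-fold. Leaving out 1 library gives the other library's value: 17.6% to 23.3% for the share of the 5 genes, 8.48% to 9.78% for MT-RNR1, 9.08% to 13.5% for MT-RNR2, 1.07 to 1.38 for the ratio of MT-RNR2 to MT-RNR1 counts, 0.132% to 0.155% for the tRNA genes within the unit, and 89.1% to 89.4% for the unit within the mitochondrial rows. Of 6 other scalings, 4 moved the log2 ratios of the rRNA genes beyond their counting intervals. Library size without the 5 genes (0.31 for MT-RNR1 and 0.67 for MT-RNR2) and without the 37 mitochondrial rows (0.32 and 0.69) stayed within them. MT-RNR1, 0.31 by TMM, was 0.20 by library size, 0.27 with DESeq2 size factors, 0.23 with TMM over all IDs above 0 and 0.38 with TMM over IDs of at least 100 summed counts. MT-RNR2, 0.68 by TMM, was 0.57, 0.64, 0.60 and 0.75 in the same order. All IDs shift together under a scaling: the median of tested IDs went from -0.07 to -0.18 by library size. IDs past 1.5-fold, 193 towards replicate 2 and 262 towards replicate 1, became 53 and 63 at 2-fold and 1374 and 1262 with at least 20 summed counts. The share of these calls towards replicate 2 was 42.4% by TMM, 26.0% by library size, 30.6% with TMM over all IDs above 0 and 53.1% with TMM over IDs of at least 100. It was 52.1% with at least 20 summed counts, so which direction held more calls depended on the setting. Counting places where a fragment of 28 nt can start, an alternative chosen after seeing the data, gave 1.37 in place of 1.36 for the density of MT-RNR1 over MT-RNR2. It raised the tRNA genes more, with MT-TF at 4226 CPM per kilobase in replicate 1 and 3755 in replicate 2. MT-TL1 was then at 1817 and 2948, MT-RNR1 at 91519 and 105488, and MT-RNR2 at 59296 and 87903. The gaps between rRNA and tRNA genes were therefore smaller on this measure. Depth limits the tRNA genes, whose intervals are wide. No paired analysis was possible because there is only 1 group.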
